A study of Mus musculus with 203 samples.

Results

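The calcitonin gene-related peptide (CGRP) system was followed in single neurons of the mouse nucleus ambiguus through 8 of the 24029 genes in the deposited count table, all 8 of which were present. They were chosen by name, with earlier results of these data known. They are the peptide genes Calca and Calcb, the receptor genes Calcr and Calcrl, the receptor partner genes Ramp1, Ramp2 and Ramp3, and Crcp. Crcp codes for a protein of the CGRP receptor complex. All neurons came from wild-type mice aged postnatal day 2 to 4, of the strain C57BL/6 in the labels and C57BL/6NCrl in the study's methods. They had been labeled with fluorescent cholera toxin B from the heart or from the cricothyroid muscle of the larynx on postnatal day 1, and were drawn by micropipette from live slices of the medulla. The deposited annotation divides the neurons labeled from the heart into 53 ACP and 98 ACV neurons, 2 cardiac types that the study separated by graph-based clustering of these same counts, and names the 52 neurons labeled from the muscle Larynx. All mice were anesthetized by hypothermia and given buprenorphine for the injection, which needed a thoracotomy for the heart and an incision at the neck with the sternohyoid muscles moved aside for the larynx, so the surgery and the labeled target cannot be told apart. The labels do not say which mouse or plate a neuron came from, so each type stands as 1 sample. All comparisons between types are therefore descriptions without a test, and every spread given is that between neurons.

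Calca and Calcb are neighboring genes that each code for a form of CGRP, a peptide that many motor neurons store and release beside acetylcholine, the classical transmitter of the nerve to skeletal muscle. The transcript of Calca can also be spliced to code for calcitonin. The CGRP receptor is a complex of Calcrl, a G protein-coupled receptor, with the single-pass membrane protein Ramp1, and Calcrl with Ramp2 or Ramp3 forms receptors for adrenomedullin. Calcr, the calcitonin receptor, forms amylin receptors with the Ramp proteins, and its complex with Ramp1 also binds CGRP. Crcp is needed for signaling by these receptors in some cells and is also a subunit of RNA polymerase III.

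Calca and Calcb share most of the exon that codes for the mature peptide, so it was checked whether reads could have been counted on the wrong gene. Both lie on chromosome 7 of mm10 (GRCm38), Calca on the minus strand at chr7:114631478-114636357 and Calcb on the plus strand at chr7:114718643-114723365, with 82285 bases and 0 protein-coding genes between them. The coding part of exon 4 of the CGRP transcript of Calca, at chr7:114632443-114632599, and that of Calcb, at chr7:114721975-114722134, are printed here from the GENCODE vM21 transcripts, 5′ to 3′, with capitals marking the bases that differ or lack a partner in the alignment.
Calca, coding part of exon 4: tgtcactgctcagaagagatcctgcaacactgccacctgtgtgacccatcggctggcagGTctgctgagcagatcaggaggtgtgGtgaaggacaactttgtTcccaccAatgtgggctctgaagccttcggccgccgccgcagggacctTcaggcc
Calcb, coding part of exon 4: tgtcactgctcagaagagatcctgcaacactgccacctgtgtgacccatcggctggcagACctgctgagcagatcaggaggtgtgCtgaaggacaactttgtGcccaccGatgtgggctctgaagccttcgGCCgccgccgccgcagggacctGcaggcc
Of the aligned bases 96.2% were the same, 6 differed and 3 had no partner. The longest run shared by any Calca and any Calcb transcript was 61 bases, shorter than the 75-base reads, and 0 stretches of read length were common to both genes. The study's methods state that reads were trimmed before alignment, and a read cut to 61 bases or fewer could match both genes. The check therefore covers exact matches of full-length reads only. The gene counts do not separate the CGRP form of Calca from the calcitonin form, so Calca values below are those of both.

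Levels are reads of a gene per 10000 reads of the same neuron outside Rn45s, a ribosomal RNA precursor that held a median of 34.3% of all reads in ACP, 35.8% in ACV and 58.6% in Larynx neurons. Reads outside Rn45s ran from 330407 to 2396541 in ACP, from 313668 to 2226230 in ACV and from 118492 to 1821510 in Larynx neurons. A gene was called detected in a neuron with 1 read or more, and intervals on shares of neurons are exact 95% Clopper-Pearson intervals, which treat neurons as independent and leave out variation between the unnamed mice. The labeled cell type was checked with 8 genes of cholinergic motor neurons. The least often detected of them was found in 92.5% of ACP, 95.9% of ACV and 84.6% of Larynx neurons, and Slc18a3, the vesicular acetylcholine transporter, was found in every neuron. Chat, which makes acetylcholine, was found in 88.5% of Larynx neurons and in all cardiac neurons, and the transcription factor gene Isl1 in 92.5%, 95.9% and 92.3% of ACP, ACV and Larynx neurons. As a floor for stray reads, 12 genes of other organs were followed: the median gene was seen in 0.493% of all neurons, and the most frequent, the heart muscle myosin gene Myh6, in 15.1% of ACP, 18.4% of ACV and 3.85% of Larynx neurons, with at most 24 reads. In Larynx neurons the most frequent was the thyroid gene Tg, at 7.69%.

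Calca was abundant in nearly all Larynx neurons and sparse in cardiac neurons. It was detected in 50 of 52 Larynx neurons (96.2%, interval 86.8 to 99.5%), 27 of 53 ACP neurons (50.9%, interval 36.8 to 64.9%) and 42 of 98 ACV neurons (42.9%, interval 32.9 to 53.3%). In Larynx neurons its level ran from 0 through a median of 9.47 to 130 reads per 10000, with a mean of 20.95 ± 27.2 (SD between neurons, n = 52). In ACP neurons the lowest level was 0, the median 0.00417 and the highest 7.44, with a mean of 0.528 ± 1.36 (SD, n = 53), and in ACV neurons the median was 0, the highest level 5.63 and the mean 0.228 ± 0.667 (SD, n = 98). The ranges overlapped in their lower part only, since 29 Larynx neurons lay above the highest cardiac neuron and 0 cardiac neurons reached the Larynx median. Larynx neurons were also unequal among themselves: 26 held 10 or more reads per 10000 and 9 were detected below 1 read per 10000, and the 5 neurons with the most reads held 47.9% of all Larynx reads of Calca.

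Calcb followed the same order of types with a smaller distance between them. It was detected in 46 of 52 Larynx neurons (88.5%, interval 76.6 to 95.6%), 31 of 53 ACP neurons (58.5%, interval 44.1 to 71.9%) and 58 of 98 ACV neurons (59.2%, interval 48.8 to 69.01%). Its level in Larynx neurons ran from 0 through a median of 9.17 to 77.8 reads per 10000, with a mean of 13.5 ± 15.6 (SD, n = 52). In ACP neurons the median was 0.178, the highest level 7.62 and the mean 0.773 ± 1.39 (SD, n = 53), and in ACV neurons the median was 0.137, the highest level 5.40 and the mean 0.484 ± 0.875 (SD, n = 98). Again 29 Larynx neurons lay above every cardiac neuron and 0 cardiac neurons reached the Larynx median.

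**Figure D1:**
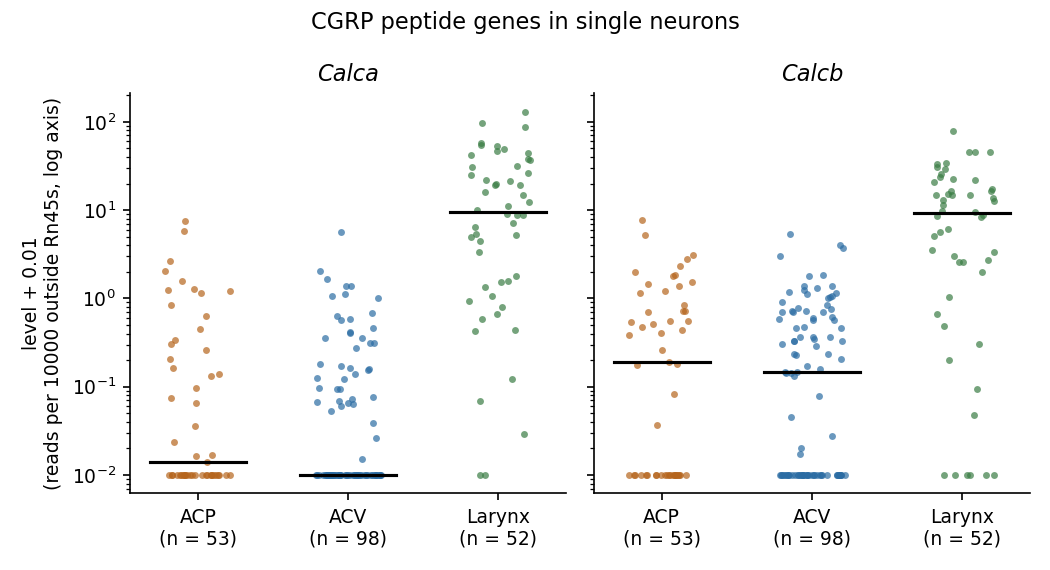
Level of Calca and Calcb in each neuron (points) by type, as reads per 10000 reads outside Rn45s plus 0.01 on a log axis, with the median of each type as a black line and neurons without a read at the bottom. Larynx medians of 9.47 and 9.17 stand above the highest cardiac neurons, at 7.44 and 7.62, while some Larynx neurons lie among the cardiac ones.

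Detection in cardiac neurons did not rest on single reads. With 10 reads or more required, Calca remained detected in 19 ACP and 33 ACV neurons and Calcb in 29 and 54, and after thinning every neuron to 118492 reads Calca was detected in 37.7% of ACP, 33.7% of ACV and 94.2% of Larynx neurons. Cardiac neurons thus ranged from 82 without a Calca read to 52 with 10 reads or more, and the highest count was 801. Larynx neurons had fewer reads outside Rn45s than cardiac neurons, with medians of 560892 and 1115375. The part of depth in the gap in level was not tested. Within Larynx neurons the levels of Calca and Calcb and the number of reads outside Rn45s gave Spearman's rho of 0.35 and 0.31, over 52 neurons.

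The distance between types was set beside that of all other genes. The study had already reported Calca and Calcb as markers of laryngeal against cardiac neurons in these same data. Their passing of the limit below is therefore a description and no new support. Among genes detected in 10% or more of either type, the mean level plus 0.1 was compared, and a gene was past the limit at 4-fold, or 2 on the log2 scale. For Larynx over ACP, Calca stood at 5.07 and Calcb at 3.96 on this log2 scale, 2 of 8 members compared were past the limit toward Larynx against 0.219% of 13256 genes, and 0 were past it toward ACP against 0.196%. For Larynx over ACV, Calca stood at 6.00 and Calcb at 4.54, 2 of 7 members compared were past the limit toward Larynx against 0.414% of 13297 genes, and 0 toward ACV against 0.256%. Calca had the highest log2 ratio of all genes compared in both pairs, while 2 genes exceeded Calcb in the pair with ACP and 1 in the pair with ACV. Without the added 0.1, mean Calca was 39.7 times as high in Larynx as in ACP neurons and 91.9 times as high as in ACV neurons, and mean Calcb 17.4 and 27.8 times as high. Between the cardiac types 0 of 7 members compared were past the limit, against 0.24% of 13356 genes toward ACP and 0.142% toward ACV. Mean Calca was 2.32 times and mean Calcb 1.60 times as high in ACP as in ACV neurons, differences of 0.300 and 0.289 reads per 10000 that were smaller than the SD between ACP neurons. The median log2 ratio over all genes compared was 0.02, 0.02 and 0.00 in the 3 pairs. Scaling to totals with Rn45s moved this median to -0.29 for Larynx over ACP and -0.23 for Larynx over ACV, and the share of genes past the limit that lay toward Larynx from 52.7 to 24.4% and from 61.8 to 33.3%, with Calca and Calcb still past it toward Larynx.

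The peptide genes were next compared with each other per kb of exon, since Calca has 1684 and Calcb 1264 exon bases. These lengths join the exons of all annotated transcripts of a gene, while the CGRP transcripts have 994 and 962 bases. In Larynx neurons the mean level was 12.4 reads per 10000 per kb for Calca and 10.7 for Calcb, and the medians were 5.63 and 7.25. In cardiac neurons Calcb was the higher of the pair, with 0.611 per kb against 0.314 for Calca in ACP and 0.383 against 0.135 in ACV neurons. In single neurons with both genes detected, the level of Calca per kb exceeded that of Calcb in 25 of 46 Larynx neurons, 3 of 21 ACP neurons and 6 of 34 ACV neurons, and the median ratio of Calca to Calcb per kb was 1.11, 0.581 and 0.360. By reads not divided by length, Calca was the higher in 38 of 46 Larynx, 4 of 21 ACP and 9 of 34 ACV neurons. How the 2 genes compared in Larynx neurons thus depended on the length used.

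Calca and Calcb were usually found in the same Larynx neuron, and less often together in cardiac neurons. Both were detected in 46 of 52 Larynx neurons (88.5%, interval 76.6 to 95.6%), 21 of 53 ACP neurons (39.6%, interval 26.45 to 53.996%) and 34 of 98 ACV neurons (34.7%, interval 25.36 to 44.98%). Calca without Calcb was found in 4 Larynx, 6 ACP and 8 ACV neurons, Calcb without Calca in 0 Larynx, 10 ACP and 24 ACV neurons, and neither gene in 2, 16 and 32. The 0 of 52 Larynx neurons with Calcb alone allow a share of up to 5.77%. Within cardiac neurons the pair also tended to occur together: Calcb was detected in 77.8% of the 27 ACP neurons with Calca and in 38.5% of the 26 without it, and in 80.95% of the 42 ACV neurons with Calca and 42.9% of the 56 without it. Levels of the 2 genes gave Spearman's rho of 0.92 over the 52 Larynx neurons, 0.53 over the 53 ACP neurons and 0.38 over the 98 ACV neurons, where both values of a point share 1 library and its depth. In neurons with both genes, Calca held a median of 59.6% of the summed reads in Larynx (quartiles 51.6 and 67.3%), 43.6% in ACP (quartiles 22.5 and 49.7%) and 32.4% in ACV neurons (quartiles 21.8 and 50.7%).

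**Figure D2:**
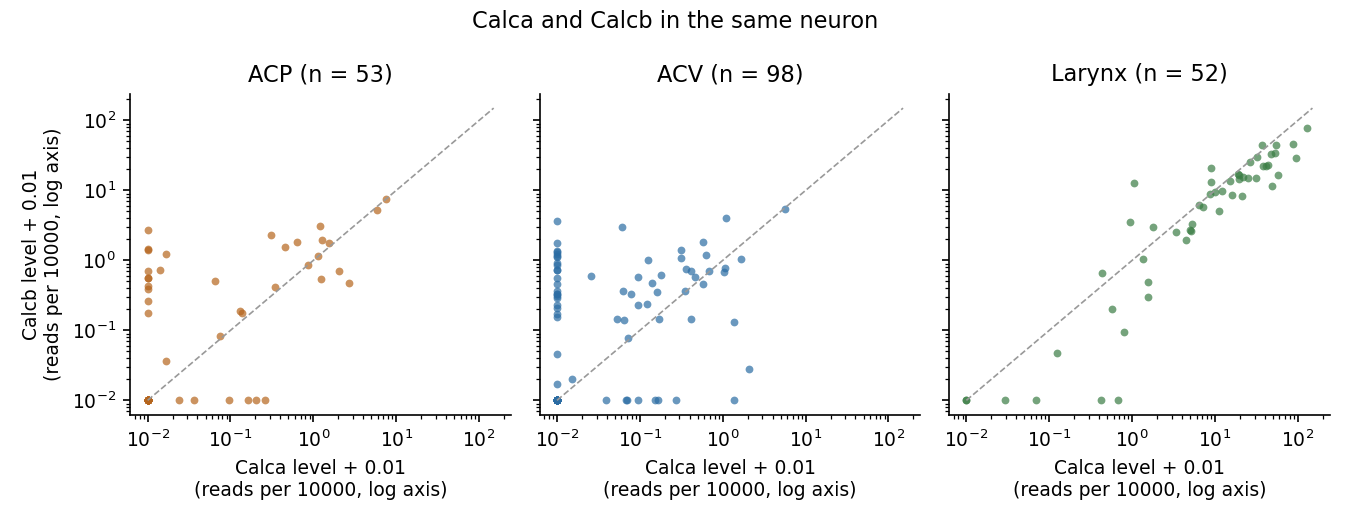
Calcb level against Calca level in each neuron (points), in reads per 10000 outside Rn45s plus 0.01 on log axes, for ACP, ACV and Larynx neurons, with a dashed line of equal levels. Larynx points follow the line over the whole range (rho 0.92), while many cardiac points lie on an axis because only 1 of the genes was detected.

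The neurons at the ends of the range were inspected. The 2 Larynx neurons without Calca also lacked Calcb, and had 118492 and 446059 reads outside Rn45s. The 6 without Calcb had a median Calca level of 0.0388 and a highest of 0.661, far below the type's median, and between 118492 and 855915 reads outside Rn45s. Conversely, 8 cardiac neurons, 5 ACP and 3 ACV, reached the lower quartile of Larynx neurons for Calca (1.48 reads per 10000), and Calcb was detected in all 8, at a median of 1.40. For Calcb (lower quartile 1.74) there were 14 such cardiac neurons, 8 ACP and 6 ACV, and Calca was not detected in 3 of them. The highest cardiac levels of Calca and of Calcb, 7.44 and 7.62, were both in ACP neurons.

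The receptor genes Calcrl and Calcr were detected in few neurons of any type. Calcrl was detected in 9 ACP neurons (16.98%, interval 8.07 to 29.8%), 6 ACV neurons (6.12%, interval 2.28 to 12.9%) and 5 Larynx neurons (9.62%, interval 3.20 to 21.03%). Its highest levels were 0.225, 0.286 and 0.293 reads per 10000, and its medians 0 in all 3 types. Calcr was detected in 5 ACP neurons (9.43%, interval 3.13 to 20.7%), 9 ACV neurons (9.18%, interval 4.29 to 16.7%) and 8 Larynx neurons (15.4%, interval 6.88 to 28.1%), with highest levels of 0.0871, 1.41 and 0.623. The 1 ACV neuron at 1.41 held 66.1% of the Calcr reads of its type, and every other neuron was at or below 0.623. At 5 reads or more, Calcrl remained in 2 ACP, 3 ACV and 3 Larynx neurons and Calcr in 3, 6 and 3. In ACV neurons both genes were found less often than Myh6 (18.4%), the most frequent of the genes of other organs. They were found more often there than every other gene of that list, at most 3.06%. In ACP neurons Calcrl stood beside Myh6 at 16.98% and 15.1%, with Calcr below it. Both were above the other listed genes in ACP, at most 5.66%. The part of stray reads in these shares was not tested. In Larynx neurons Calcr at 15.4% and Calcrl at 9.62% were found more often than the most frequent gene of another organ, at 7.69%, and the intervals of both hold that value.

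The receptor partner genes were found in more neurons, at low levels, and for Ramp1 and Ramp2 all 3 types lay close together. Ramp1 was detected in 31 ACP neurons (58.5%, interval 44.1 to 71.9%), 67 ACV neurons (68.4%, interval 58.2 to 77.4%) and 34 Larynx neurons (65.4%, interval 50.9 to 78.03%). Its median level was 0.205, 0.285 and 0.244 reads per 10000, its highest 2.24, 5.33 and 3.96, and its mean 0.383 ± 0.516, 0.515 ± 0.787 and 0.498 ± 0.735 (SD, n = 53, 98 and 52). The types overlapped over nearly the whole range, with 2 Larynx neurons above the highest ACP neuron. Ramp2 was detected in 47.2% of ACP, 42.9% of ACV and 46.2% of Larynx neurons, with means of 0.140 ± 0.305, 0.127 ± 0.238 and 0.129 ± 0.217. Of its 3301 exon bases 1103 are shared with Vps25 on the same strand, so reads of these genes may not be told apart and Ramp2 values are uncertain.

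By ratio of means, Ramp3 was the member with the widest gap between the cardiac types, though inside the 4-fold limit with 0.1 added. By difference of means, 0.178 for Ramp3, the gap was wider for Calca (0.300), Calcb (0.289) and Crcp (0.263). Ramp3 was detected in 38 of 98 ACV neurons (38.8%, interval 29.1 to 49.2%), 13 of 53 ACP neurons (24.5%, interval 13.8 to 38.3%) and 13 of 52 Larynx neurons (25%, interval 14.03 to 38.9%). The highest levels were 1.74 in ACV, 0.335 in ACP and 0.715 in Larynx neurons, and the medians were 0 in all 3. Mean level was 0.216 ± 0.421 in ACV, 0.0383 ± 0.0951 in ACP and 0.0727 ± 0.161 in Larynx neurons, a ratio of 5.65 of ACV to ACP and a log2 ratio of ACP over ACV of -1.19 with 0.1 added to each mean. The lower ratio comes with the addition of 0.1 to means of this size. With 0.01 added Ramp3 was the only member past the limit between the cardiac types, where 2.70% of all genes compared were past it. With 0.1 added that share was 0.382%. At least 10 reads of Ramp3 were found in 33 ACV, 6 ACP and 9 Larynx neurons. Microglial markers differed between the cardiac types in the same direction. All 9 were detected in both types. Their summed level ran from 0 to 9.18 reads per 10000 in ACP and from 0 to 71.5 in ACV neurons, with means of 1.48 ± 1.78 and 5.09 ± 12.97. Of 8 compared 1, the complement gene C1qb, was past the limit toward ACV, against 0.142% of all genes compared. The median log2 ratio of the microglial markers, ACP over ACV, was -1.51. A limit of at most 1800 Apoe reads, added after the data were seen, left 42 ACP and 70 ACV neurons. Their mean summed microglial level was 1.20 and 1.21. Mean Ramp3 in them was 0.0330 in ACP and 0.213 in ACV neurons, a ratio of 6.44 of ACV to ACP. The level of Ramp3 and the summed microglial level gave rho of 0.03 over the 53 ACP and 0.01 over the 98 ACV neurons. The part of microglial RNA in the Ramp3 gap was not tested. A small part of the 1380 exon bases of Ramp3 lies opposite the pseudogene Gm11978, and whether reads were counted by strand is not given in the sources used here.

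Crcp was detected in 75 of 98 ACV neurons (76.5%, interval 66.9 to 84.5%), 35 of 53 ACP neurons (66.04%, interval 51.7 to 78.5%) and 33 of 52 Larynx neurons (63.5%, interval 48.96 to 76.4%). Its median level was 0.514 in ACV, 0.325 in ACP and 0.165 in Larynx neurons, and its mean 0.665 ± 0.663, 0.402 ± 0.410 and 0.338 ± 0.474 reads per 10000. The difference of means between ACV and Larynx, 0.327, was smaller than the SD of either type. For every member and every pair of types, Calca and Calcb included, the difference of means was smaller than the larger SD between neurons. For Calca in Larynx over ACP neurons it was 20.4 against an SD of 27.2. Among neurons with at most 1800 Apoe reads mean Crcp was 1.80 times as high in ACV as in ACP neurons, against 1.65 times over all. In the cardiac types, detection of Crcp moved with depth, with a median of 1258412 reads outside Rn45s in ACP neurons with Crcp and 900147 in those without, and 1294645 and 867906 in ACV neurons. In Larynx neurons these medians were 573752 and 531546.

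**Figure D3:**
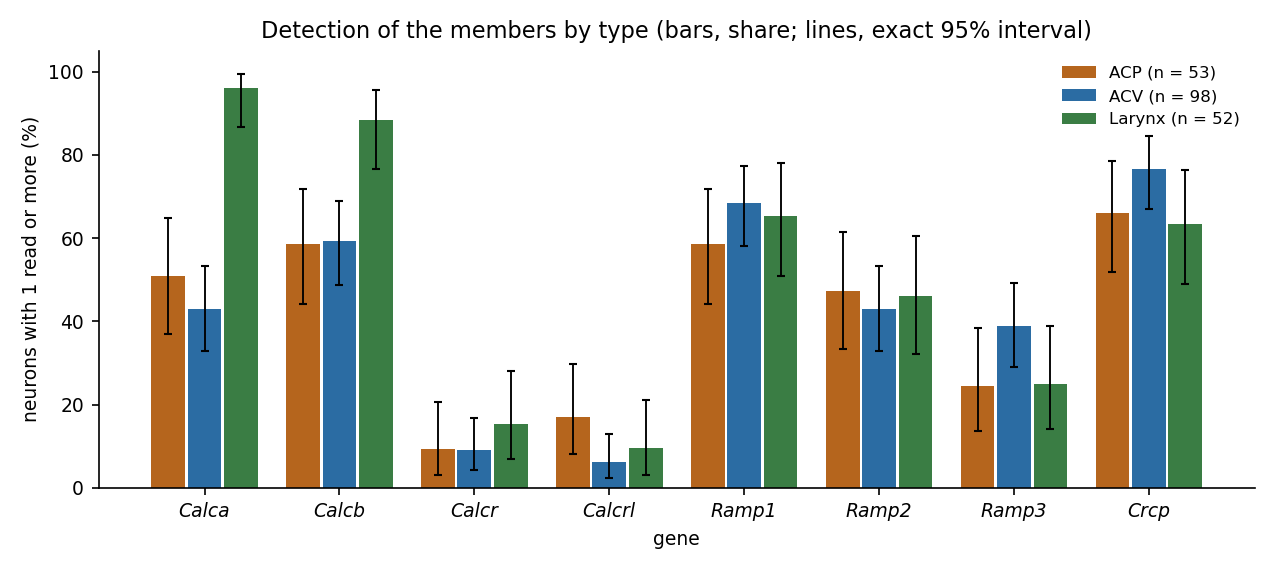
Percent of neurons with 1 read or more of each member (bars) in ACP, ACV and Larynx neurons, with exact 95% intervals (lines). Calca and Calcb reach 96.2% and 88.5% of Larynx neurons, Calcr and Calcrl reach at most 16.98% of any type, and the Ramp genes and Crcp lie between, with overlapping intervals among types.

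**Figure D4:**
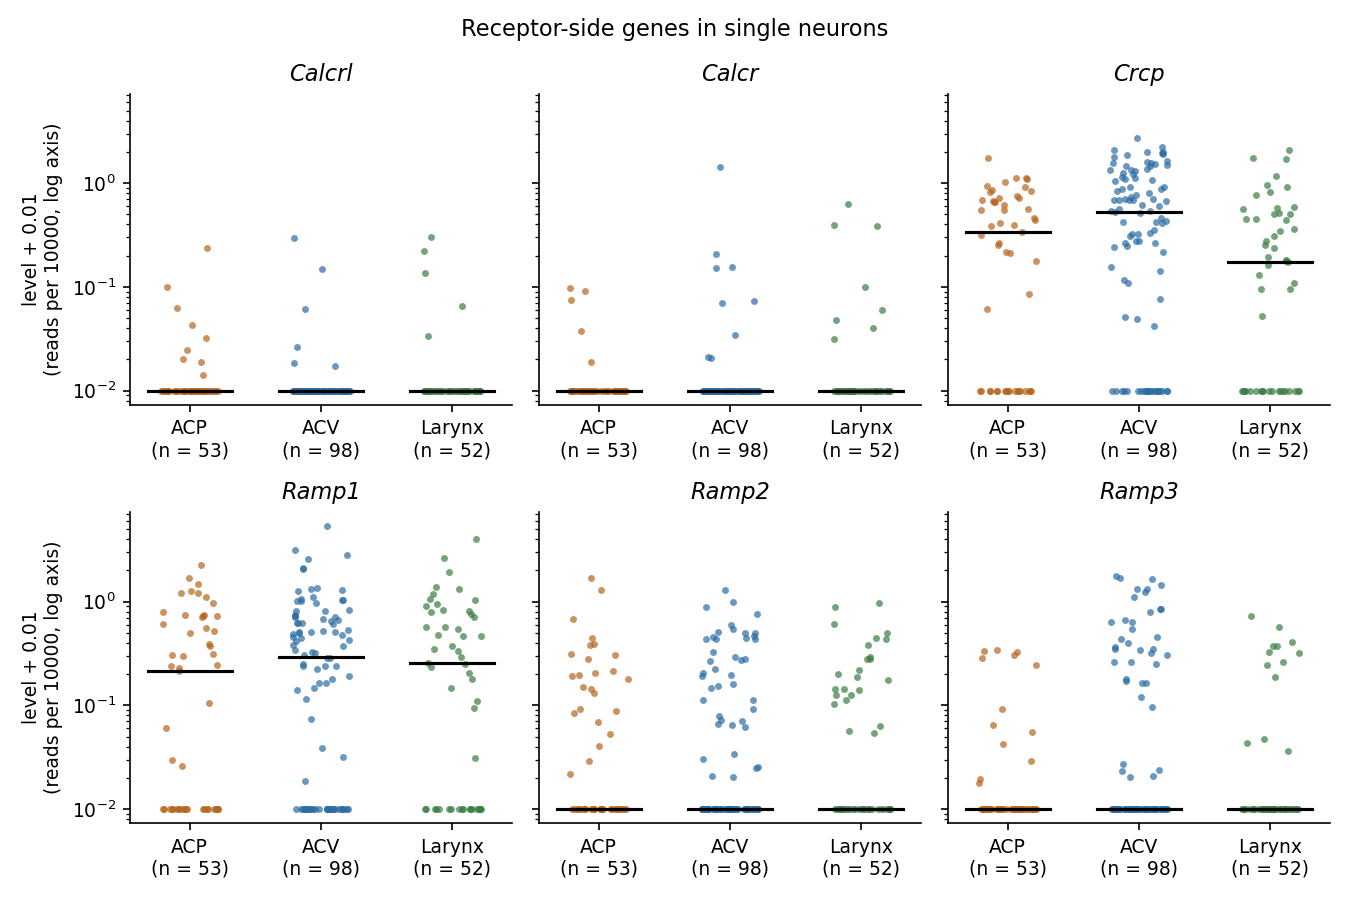
Level of the 6 receptor-side genes in each neuron (points) by type, as reads per 10000 outside Rn45s plus 0.01 on a log axis, with medians as black lines. Most neurons lie at the bottom for Calcrl and Calcr, and the upper group of Ramp3 points in ACV neurons (up to 1.74) has no counterpart in ACP neurons (up to 0.335).

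Per kb of exon, the receptor-side genes ranked alike in the 3 types at the ends of the order. Crcp was highest in all 3, with means of 0.254, 0.419 and 0.213 reads per 10000 per kb in ACP, ACV and Larynx neurons, followed by Ramp1 at 0.127, 0.171 and 0.165. Calcr and Calcrl were lowest, with means between 0.00106 and 0.00790. The mean of Calca per kb was 12.4 in Larynx neurons, against 0.00279 for Calcrl in the same neurons.

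The complete CGRP receptor pair was seen in few neurons. Calcrl and Ramp1 were detected together in 6 ACP neurons (11.3%, interval 4.27 to 23.03%), 5 ACV neurons (5.10%, interval 1.68 to 11.5%) and 4 Larynx neurons (7.69%, interval 2.14 to 18.5%), and with 5 reads of each in 0, 3 and 3. Of these 15 neurons, 13 also held Calca or Calcb. Among all neurons of the 3 types 75.4% held Calca or Calcb, with 69.8% in ACP, 67.3% in ACV and 96.2% in Larynx neurons. Whether the receptor pair and the peptide genes occurred together more often than these shares give was not tested. Ramp1 was present in 75.0% of the 20 neurons with Calcrl and 63.9% of those without it. Calcrl and Ramp2, the adrenomedullin receptor pair, were found together in 5 ACP, 6 ACV and 4 Larynx neurons, and Calcrl and Ramp3 in 3, 4 and 3. All 5 ACP and all 8 Larynx neurons with Calcr held Ramp1, as did 6 of the 9 ACV neurons with Calcr (66.7%). Among neurons without Calcr, Ramp1 was found in 54.2% of ACP, 59.1% of Larynx and 68.5% of ACV neurons. Calcr was found with Ramp2 in 4, 2 and 6 neurons and with Ramp3 in 2, 4 and 4. Most neurons with Ramp1 had no receptor gene detected beside it: Ramp1 without Calcrl or Calcr was found in 21 ACP (39.6%), 57 ACV (58.2%) and 25 Larynx neurons (48.1%). At the detection limits of these libraries such neurons cannot be said to lack the receptor transcripts.

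RNA of other cells moved with Ramp1, and its markers were more often detected in neurons with Calcrl. Apoe, which astrocytes express strongly, had a median of 961 reads in ACP, 1077 in ACV and 555 in Larynx neurons, and highest counts of 6357, 45046 and 1784. The study's methods state that neurons above an upper limit of Apoe counts were removed. More than 1800 Apoe reads were found in 11 ACP, 28 ACV and 0 Larynx neurons of the deposited table, so its cardiac neurons do not keep to that limit. Without these neurons, 22 of 42 ACP neurons (52.4%) and 42 of 70 ACV neurons (60%) held Ramp1, at means of 0.312 and 0.296, and Calcrl was found in 8 and 2 of them. The level of Ramp1 and that of Apoe gave Spearman's rho of 0.47 over ACP, 0.43 over ACV and 0.46 over Larynx neurons. For Ramp2 it was 0.19, 0.25 and 0.09, for Calcr 0.22, 0.23 and 0.25, for Calcrl 0.07, 0.18 and -0.06, for Ramp3 0.19, 0.05 and -0.11, and for Crcp -0.14, -0.10 and -0.05. Among neurons with at most 900 Apoe reads, Ramp1 was detected in 42.3% of 26 ACP, 52.3% of 44 ACV and 60.5% of 38 Larynx neurons, and among the others in 74.1% of 27, 81.5% of 54 and 78.6% of 14. For Calca and Calcb the corresponding rho lay between -0.13 and 0.11 in the 3 types. Other markers were followed for the 20 neurons with Calcrl and all those without it. A median of 5 of 9 microglial markers was detected with Calcrl and 2 without it, of 9 oligodendrocyte markers 5 and 3, of 8 astrocyte markers 7 and 5, of 8 mural cell markers 2 and 1, and of 12 endothelial markers 2 and 1. For the microglial markers the median number was 3 with Ramp1 and 1 without it, 4 and 2 for Calcr, and 3 and 2 for both Ramp2 and Ramp3. The summed level of the endothelial markers ran from 0 to 1.25 reads per 10000 with Calcrl and from 0 to 5.18 without it, with medians of 0.224 in both. With and without Calcrl, the other medians were 1.19 and 0.9998 for microglial and 23.9 and 23.5 for astrocyte markers. They were 2.36 and 1.78 for oligodendrocyte and 0.163 and 0.0227 for mural cell markers. Over the types, 10 of the 12 endothelial markers were detected in ACP neurons (Flt1 and Emcn at 0), 10 in ACV neurons (Emcn and Tie1 at 0) and 11 in Larynx neurons (Ly6c1 at 0). Summed levels in ACP, ACV and Larynx neurons had medians of 20.1, 22.8 and 27.9 for the astrocyte markers and 0.9998, 1.05 and 0.938 for the microglial markers, whose means were 1.48, 5.09 and 3.14. The part of this RNA in the receptor-side detections was not tested.

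**Figure D5:**
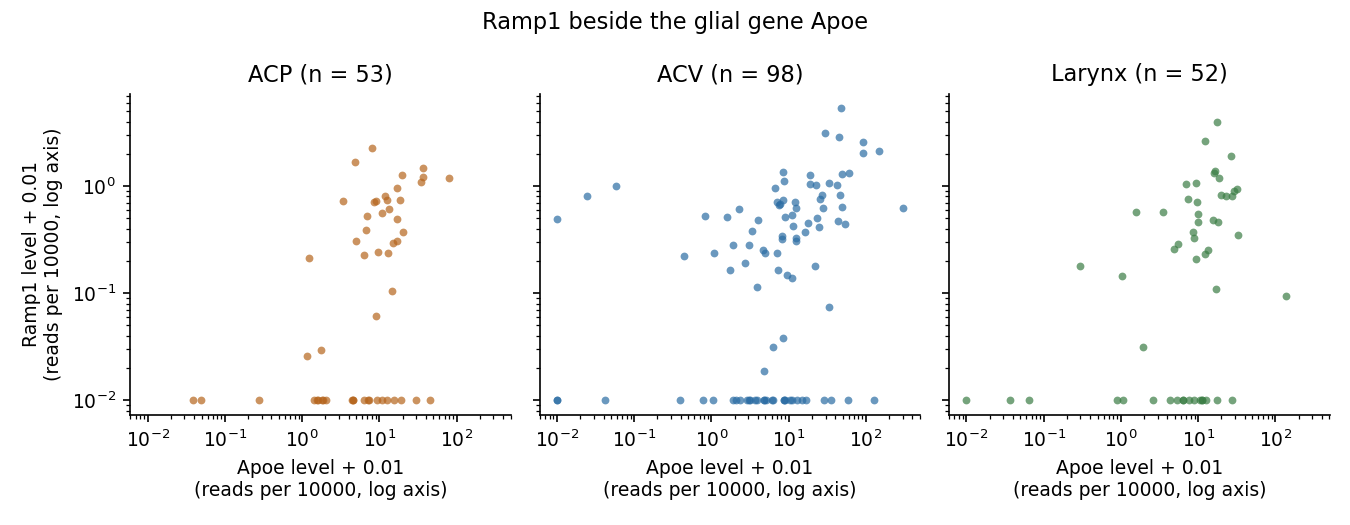
Ramp1 level against Apoe level in each neuron (points) of the 3 types, in reads per 10000 outside Rn45s plus 0.01 on log axes. Points with Ramp1 lie toward the right of each panel, with rho between 0.43 and 0.47, and neurons without Ramp1 form the bottom row.

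The other ligands of these receptors were nearly absent. Adm, which codes for adrenomedullin, was detected in 0 ACP, 1 ACV and 3 Larynx neurons, with at most 110 reads, Adm2 in 1 ACV neuron and Iapp, the amylin gene, in 1 ACV and 1 Larynx neuron. The 0 of 53 ACP neurons found for each allow a share of up to 5.66%. Genes of the pathway around CGRP were taken as lists. Over all genes compared, between 0.142% and 0.414% were past the 4-fold limit in either direction of a pair. At such shares 0 is the likely count for lists of this size. Of 7 genes of peptide processing, 0 were past the 4-fold limit in any pair, with median log2 ratios of 0.06 for Larynx over ACP, -0.34 for Larynx over ACV and 0.21 for ACP over ACV. Pcsk1, the prohormone convertase 1 gene, named after its values were seen, was detected in 81.1% of ACP, 55.1% of ACV and 28.8% of Larynx neurons, with means of 0.840 ± 1.19, 0.346 ± 0.661 and 0.182 ± 0.531. Of 27 signaling genes downstream of the receptor, from Gnas to protein kinase A subunits, 0 were past the limit in any pair, with median log2 ratios of 0.04, -0.02 and 0.17. Of 4 peptide-degrading enzyme genes compared, 1 was past the limit. This was Ece2, an endothelin-converting enzyme gene, found in 41.5% of ACP, 28.6% of ACV and 57.7% of Larynx neurons. Its mean level was 0.385 ± 0.937, 0.0175 ± 0.0868 and 0.567 ± 0.749, which placed it at 2.51 for Larynx over ACV and 2.05 for ACP over ACV on the log2 scale. Of its 5110 exon bases 2937 are shared with Gm49333 on the same strand, so its values are uncertain.

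Genes whose levels were most like those of the peptide genes were ranked among 7483 genes detected in at least 50% of Larynx neurons, by Spearman's rho over neurons. Over all neurons, where differences between types enter, the 5 nearest to Calca were Calcb (0.70), Gfra1 (0.58) and Ret (0.57), which form a receptor for glial cell line-derived neurotrophic factor, Galnt16 (0.57) and Plch1 (0.53). For Calcb they were Calca (0.70), the neurofilament gene Nefm (0.55), Ret (0.55), Spock3 (0.52) and Acly (0.52), against a median over genes of 0.03 for Calca and 0.02 for Calcb. Over the 52 Larynx neurons alone, each peptide gene was the nearest of all genes to the other (0.92). Next to Calca came Layn (0.74), Slc10a4 (0.73), Atp2b1 (0.72) and Resp18 (0.71). Next to Calcb came Slc10a4 (0.78), a transporter gene of cholinergic vesicles, Resp18 (0.77), Layn (0.76) and Chodl (0.73), a gene known from fast motor neurons. The median over genes was near 0 for both (0.0035 and -0.0065).

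Other peptide genes were set beside Calca and Calcb, namely Pnoc, Uts2, Trh and Cartpt, a list the study drew from these same neurons. In Larynx neurons their means were 3.02 ± 2.96 for Pnoc, 0.939 ± 1.93 for Uts2, 2.03 ± 4.49 for Trh and 1.57 ± 2.89 for Cartpt, in reads per 10000. Calca was detected together with Pnoc in 47 of 52 Larynx neurons, with Cartpt in 38, with Uts2 in 32 and with Trh in 25. Their levels did not track Calca as Calcb did, with rho of 0.27 for Pnoc, 0.07 for Uts2, 0.04 for Cartpt and -0.22 for Trh over the 52 neurons. All 32 Larynx neurons with Uts2 held Calca, as did 18 of the 20 without it (90%). Calca had a median of 11.7 and a range from 0.414 to 130 with Uts2, and 5.71 and from 0 to 52.5 without it. The ranges overlapped widely. Calcb was found in 93.75% of Larynx neurons with Uts2 and 80% without it, Ramp1 in 53.1% and 85%, and Ramp3 in 25% of both. In ACV neurons the 44 with Calb1, the calbindin gene, and the 54 without it had Calca in 52.3% and 35.2%, Calcb in 59.1% and 59.3%, Ramp1 in 77.3% and 61.1% and Ramp3 in 45.5% and 33.3%, at median depths of 1020696 and 1244032 reads outside Rn45s.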

How the data were processed

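Single nucleus ambiguus neurons were profiled by Smart-seq2, a plate-based full-length method, with 75-base paired reads. The authors trimmed reads with Skewer for base quality and adapters and aligned them to mm10 with STAR 2.6.1d. They deposited, per neuron, raw counts of reads for every gene. The program and annotation used for counting, and whether strand was used, are not given in the sources used here. A second deposited table, named CPM, holds a score without a fixed unit: the divisor of each count is the total of some neuron, and changes from gene to gene. It served only as an alternative. Target and type were taken from the deposited annotation.

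Counts were scaled to 10000 reads outside Rn45s per neuron. Total counts ran from 542162 to 3292763 and no pair of neurons had identical counts. Detection meant 1 read or more. Shares have exact Clopper-Pearson 95% intervals, and 3 neurons over the number of neurons stand as the limit for 0. Type means were compared with 0.1 added, among genes detected in 10% of either type, against a 4-fold limit. Each neuron is 1 deposited sample of unnamed animal, so no test between types was run. Thinning drew reads without replacement to 118492 per neuron. Gene positions, exon lengths and sequences are from GENCODE vM21 (GRCm38). The fold calculation was tested on simulated counts, with known folds put only into genes of higher mean level than the receptor-side genes. It does not cover levels as low as theirs.

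The members and gene lists were chosen with earlier results of these data known. Named genes were the members, Adm, Adm2, Iapp, pathway genes past the limit, the 5 genes most like Calca or Calcb by rho over all and over Larynx neurons, Uts2, Calb1, Pnoc, Trh, Cartpt and the identity genes. Exceptions are marked in the text. Alternatives were totals with Rn45s, edgeR 4.0.16 TMM library sizes, DESeq2 1.42.0 size factors, thinning, the table named CPM, pooled reads, neurons with at most 900 or, added after the data were seen, 1800 Apoe reads or at least 500000 reads outside Rn45s, other additions, filters, limits and detection minimums. Python 3.11.15, numpy 2.4.6, scipy 1.17.1 and R 4.3.3 were used.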

Additional observations from a re-analysis of the deposited data

How the results depend on the processing

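Larynx over cardiac, the log2 ratio of mean levels was 5.60 for Calca and 4.31 for Calcb, and over the 11 alternatives it ran from 4.04 to 6.04 and from 3.19 to 4.59, lowest with 1 added. Calca and Calcb were past the limit toward Larynx in both pairs under every alternative, and between ACP and ACV Ramp3 alone passed it, with 0.01 added or a 2-fold limit. The share of all genes compared that were past the limit was 0.415% for Larynx over ACP, 0.669% for Larynx over ACV and 0.382% for ACP over ACV. In that order it was 3.42, 3.78 and 2.70% with 0.01 added, 0.0377, 0.0526 and 0.0150% with 1 added, 5.05, 6.001 and 3.42% at a 2-fold limit, and 0.668, 1.03 and 0.709% in neurons with at most 900 Apoe reads. With Rn45s in the totals it was 0.361% for Larynx over ACV. Of the genes past the limit for Larynx over ACP, 52.7% lay toward Larynx, against 12.2% with the table named CPM and 63.3% with pooled reads, and for Larynx over ACV 61.8% against 14.8% and 69.2%.

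Most alternative shares of neurons stayed inside the 95% interval. Calca was detected in 35.8% of ACP neurons at 10 reads or more, in 31.8% of ACV neurons with at most 900 Apoe reads, and in 100% of Larynx neurons with at most 900 Apoe reads or with at least 500000 reads outside Rn45s. Calcrl with Ramp1 fell to 0% of ACP neurons at 5 or 10 reads or thinned, 0% of ACV neurons with at most 900 Apoe reads, 1.43% of ACV neurons with at most 1800, a limit added after the data were seen, and 1.92% of Larynx neurons at 10 reads, so the size of this group rests on few reads. No paired analysis was possible because the labels put all neurons in 1 group and name no animal. Depth limits what can be said of Calcrl and Calcr, and intervals cover counting error only.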
